A study of Mus musculus with 4 samples.

Results

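The forkhead genes encode transcription factors that share the winged-helix (forkhead) DNA-binding domain. The members were the protein-coding genes of the GENCODE M21 annotation of mm10 whose symbol is Fox followed by a letter from a to s and a digit, which gave 44 of 21938 protein-coding genes. In the deposited list of 45855 differential H3K9ac regions, 37 regions lay within 1 kb of an annotated start of a forkhead gene. A further 77 lay inside forkhead genes but outside these start windows, so that 114 regions belong to the family. The 10 Foxo, Foxp and Foxk genes, as the subfamilies with broad expression, were set beside the 34 others, most of which act in particular lineages.

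H3K9ac is the acetylation of lysine 9 of histone H3, a mark of active promoters and enhancers. The study pulled it down from HT22 cells, which are immortalised mouse hippocampal neurons, and sequenced the DNA (chromatin immunoprecipitation sequencing, ChIP-seq). The cells had been grown for 48 h with 5 µM choline chloride as the control or with 70 µM choline chloride as the supplemented condition, in the same high-glucose medium with serum. There are 4 libraries in all, of which 2 are H3K9ac ChIP and 2 are input, so each choline level had at most 1 ChIP library and no culture was repeated. The labels do not tie a library to a choline level.

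The list gives regions that the authors' comparison assigned to one condition or the other, and no region common to both. The region names put 5 before 70, so condition 1 is taken to be 5 µM and condition 2 to be 70 µM, and each direction below depends on this. Of all regions, 45495 (99.2%) were assigned to 70 µM and 360 to 5 µM. Each region carries a score from the authors' deposited table, called the deposited score below. The file names neither the score nor its unit, and over the list it ran from 3.08 to 44.5 with a median of 6.64. How deeply the libraries were sequenced is unknown. With no replicate of a choline level there was no spread to test against, so the values below are descriptions of this list, with no p-value. A gene without a listed region may carry H3K9ac at both levels alike.

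Most forkhead proteins bind related DNA sites as monomers, with a core that reads GTAAACA, and differ mainly outside the binding domain. The FoxO factors are kept out of the nucleus by Akt phosphorylation when insulin or growth factors are present, and otherwise switch on genes of stress resistance, autophagy and cell cycle arrest. The FoxK factors recruit the Sin3 corepressor complex, and the FoxP factors repress transcription as dimers through a leucine zipper. Most of the other subfamilies direct the development of single tissues, such as liver and gut for FoxA, lens and thyroid for FoxE and ciliated cells for Foxj1. In the hippocampus, FoxO factors are known for the upkeep of neural stem cells.

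The sequences of 5 regions show the range of DNA that carried the differential mark. They are the start-site regions with the highest deposited score in Foxo, Foxp and Foxk, that of Foxm1 from the other genes, and the internal region with the highest score in the family. Each is read from the RefSeq GRCm38.p6 sequence, the same build as mm10, 5′ to 3′ on the strand of its gene, and capitals mark CpG dinucleotides.
Foxo1, chr3:52267846-52268000, plus strand, 19 CpG: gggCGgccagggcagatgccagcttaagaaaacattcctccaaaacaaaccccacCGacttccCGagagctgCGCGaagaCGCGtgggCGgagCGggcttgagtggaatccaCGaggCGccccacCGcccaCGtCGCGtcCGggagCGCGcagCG
Foxk1, chr5:142401665-142401808, plus strand, 21 CpG: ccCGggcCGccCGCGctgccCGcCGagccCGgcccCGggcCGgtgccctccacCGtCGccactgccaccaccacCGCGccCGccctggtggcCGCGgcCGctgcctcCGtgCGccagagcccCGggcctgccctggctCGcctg
Foxp1, chr6:99519838-99520049, minus strand, 6 CpG: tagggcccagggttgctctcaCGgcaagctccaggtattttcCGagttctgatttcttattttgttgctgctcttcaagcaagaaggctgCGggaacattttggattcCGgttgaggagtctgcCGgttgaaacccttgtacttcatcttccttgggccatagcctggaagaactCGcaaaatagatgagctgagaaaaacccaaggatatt
Foxm1, chr6:128366940-128367239, plus strand, the middle 300 bases of its region, 4 CpG: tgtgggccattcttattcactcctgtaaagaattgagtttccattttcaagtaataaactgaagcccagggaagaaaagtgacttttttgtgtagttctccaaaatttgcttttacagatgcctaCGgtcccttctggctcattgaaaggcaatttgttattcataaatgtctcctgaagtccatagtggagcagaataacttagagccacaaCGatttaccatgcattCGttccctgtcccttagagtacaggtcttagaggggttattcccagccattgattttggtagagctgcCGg
Foxo3, internal, chr10:42254723-42254885, minus strand, 3 CpG: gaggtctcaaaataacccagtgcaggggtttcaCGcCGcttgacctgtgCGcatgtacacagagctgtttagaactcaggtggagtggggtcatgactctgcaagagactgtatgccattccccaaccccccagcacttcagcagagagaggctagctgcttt
The Foxo1 and Foxk1 regions are CpG-rich promoter and first-exon sequence with deposited scores of 4.68 and 4.35. The Foxp1, Foxm1 and Foxo3 regions hold few CpG and scored 7.01, 14.0 and 27.2.

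Of the 44 forkhead genes, 17 carried a listed region at a start (38.6%), against 39.5% of all protein-coding genes, so the family as a whole sat at the background. All 37 start-site regions were assigned to 70 µM, as were 13147 of the 13316 start-site regions of all protein-coding genes. No forkhead gene had a 5 µM region at a start, against 0.88% of all protein-coding genes, and 70 µM regions stood at the starts of 39.2%. At least 2 start-site regions were found at 9 forkhead genes (20.5%), against 18.1% of all protein-coding genes. Inside the span and outside the start windows, 19 forkhead genes (43.2%) had a region, against 36.6%. With only the window of the 5′-most start left out, these shares were 43.2% and 42.3%. Taking both kinds, 14 genes had start-site and internal regions, 3 had start-site regions alone, 5 had internal regions alone and 22 had neither.

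**Figure D1:**
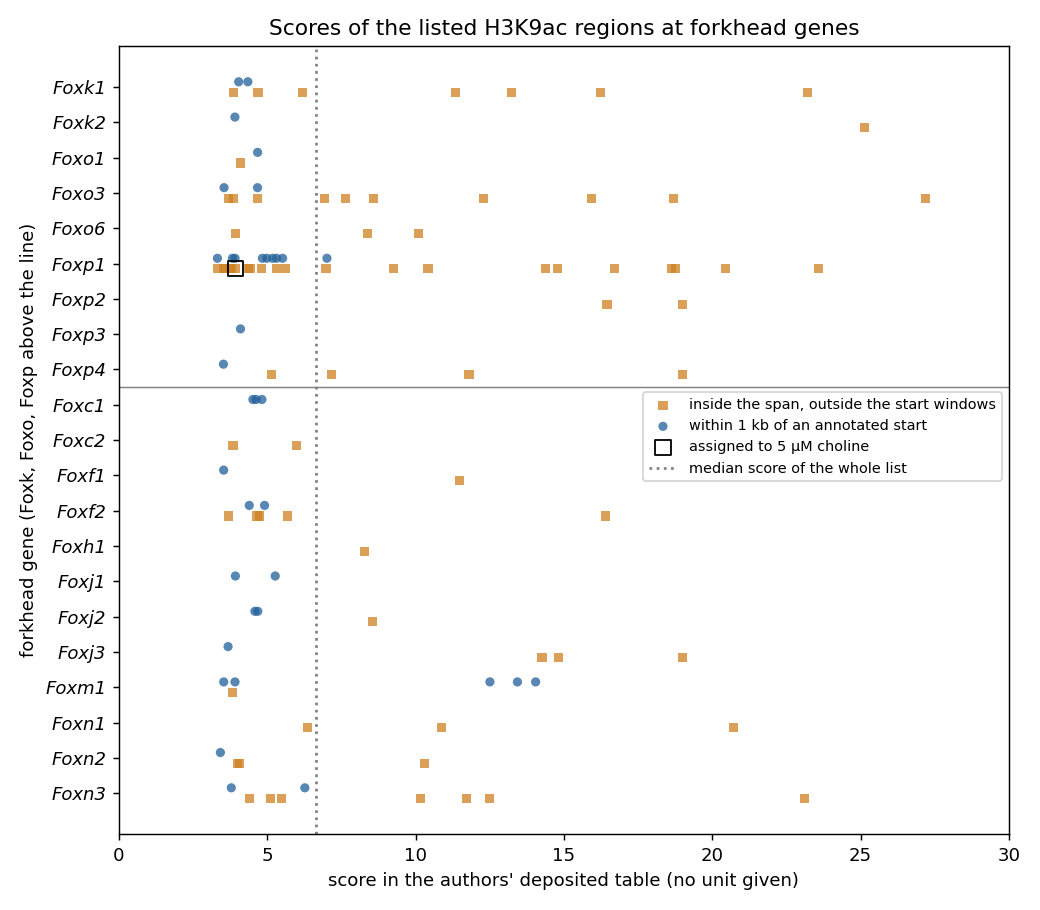
Deposited score (horizontal axis, no unit given) of every listed region at 21 of the 22 forkhead genes that had one, with circles for regions within 1 kb of an annotated start and squares for regions inside the gene. Most start-site regions lie left of the dotted median of the whole list (6.64), while internal regions reach 27.2, and the 1 open square marks the region of Foxp1 assigned to 5 µM.

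The Foxo genes split into 2 with start-site regions and 2 without. Foxo1, the main insulin-regulated factor of liver, fat and muscle, had 1 region of 155 bp with its midpoint 413 bp upstream of its start (deposited score 4.68). Its only other region lay in the 3′ UTR of exon 3 (chromosome 3, 52347194 to 52347366, score 4.10). Foxo3, which also guards neural and blood stem cells, had 2 regions in the first kilobases, at 42276199 to 42276325 (4.67) and at 42275500 to 42275699 (3.55) on chromosome 10. The latter only just met the rule, with 997 bp between its edge and the nearest start. Foxo3 then had 10 internal regions, all intronic, with scores from 3.70 to 27.2, of which 4 scored 10 or more.

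Foxo4 had no listed region at a start or inside its 6.35 kb. Foxo6, which is expressed mainly in the brain, had no start-site region and 3 intronic ones with scores of 3.93, 8.39 and 10.1. The 2 unmarked Foxo starts differed in CpG content, with 4.32 CpG per 100 bp in the Foxo4 window and 8.55 in that of Foxo6, and the marked Foxo1 window had 10.7.

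Both Foxk genes were marked in the first exon or just after it. Foxk1 had a region inside coding exon 1 (239 bp downstream of the 5′-most start, score 4.35) and another in the intron after it (802 bp downstream, 4.04). Foxk2 had 1 region inside coding exon 1 (441 bp downstream, 3.91). These 3 regions scored below the median of the list, whereas deep in the introns each gene had a region of high rank. That of Foxk1 lay at 142430964 to 142431234 on chromosome 5 (score 23.2), and that of Foxk2 at 121303650 to 121303836 on chromosome 11 (25.1). Foxk1 had 7 internal regions in 60.5 kb, 4 of them scoring 10 or more, and Foxk2 had only that 1 in 49.9 kb.

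Foxp1 carried more listed regions than any other forkhead gene. This gene spans 597 kb with 22 distinct annotated starts, and had 9 start-site and 21 internal regions. Its 5′ part is overlapped on the same strand by the annotated coding gene Gm20696. Of the start-site regions, 5 lay in the first 3 kb, with scores of 3.83, 3.92, 5.19, 5.32 and 7.01. The highest of these, whose sequence is given above, only just met the rule, with 948 bp between its edge and the nearest start. Another 3 start-site regions stood together far downstream at starts of short coding transcripts (99027208 to 99029785 on chromosome 6, scores 3.32 to 5.52). The remaining one was at the start of a noncoding transcript (4.99). Of the internal regions, 3 within about 1.5 kb of each other (99439075 to 99440593) scored 14.8, 16.7 and 23.6. The only forkhead region assigned to 5 µM lay in an intron of Foxp1 (99359740 to 99359873, score 3.93). Internal 5 µM regions were found in 0.52% of all protein-coding genes.

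Foxp2, the family member tied to speech and vocal learning circuits, is almost as long (541 kb, 16 starts) but had no start-site region and 2 intronic ones, with scores of 19.0 and 16.5. The first of these is the commonest exact score of the list, shared by 2552 regions, and the second lay entirely in sequence masked as repeat in RefSeq. Per 100 kb of gene, Foxp1 held 3.52 internal regions and Foxp2 0.370. Foxp3, the master regulator of regulatory T cells, had 1 region upstream of its start (7573180 to 7573303 on chromosome X, score 4.10). This region also lay within 1 kb of the starts of Ppp1r3f, on the opposite strand, and of the noncoding gene Flicr, so it cannot be given to Foxp3 alone. Foxp4 had 1 weak region 713 bp upstream (3.53) and 4 internal regions from 5.16 to 19.0, the highest at the commonest exact score and inside coding exon 4.

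**Figure D2:**
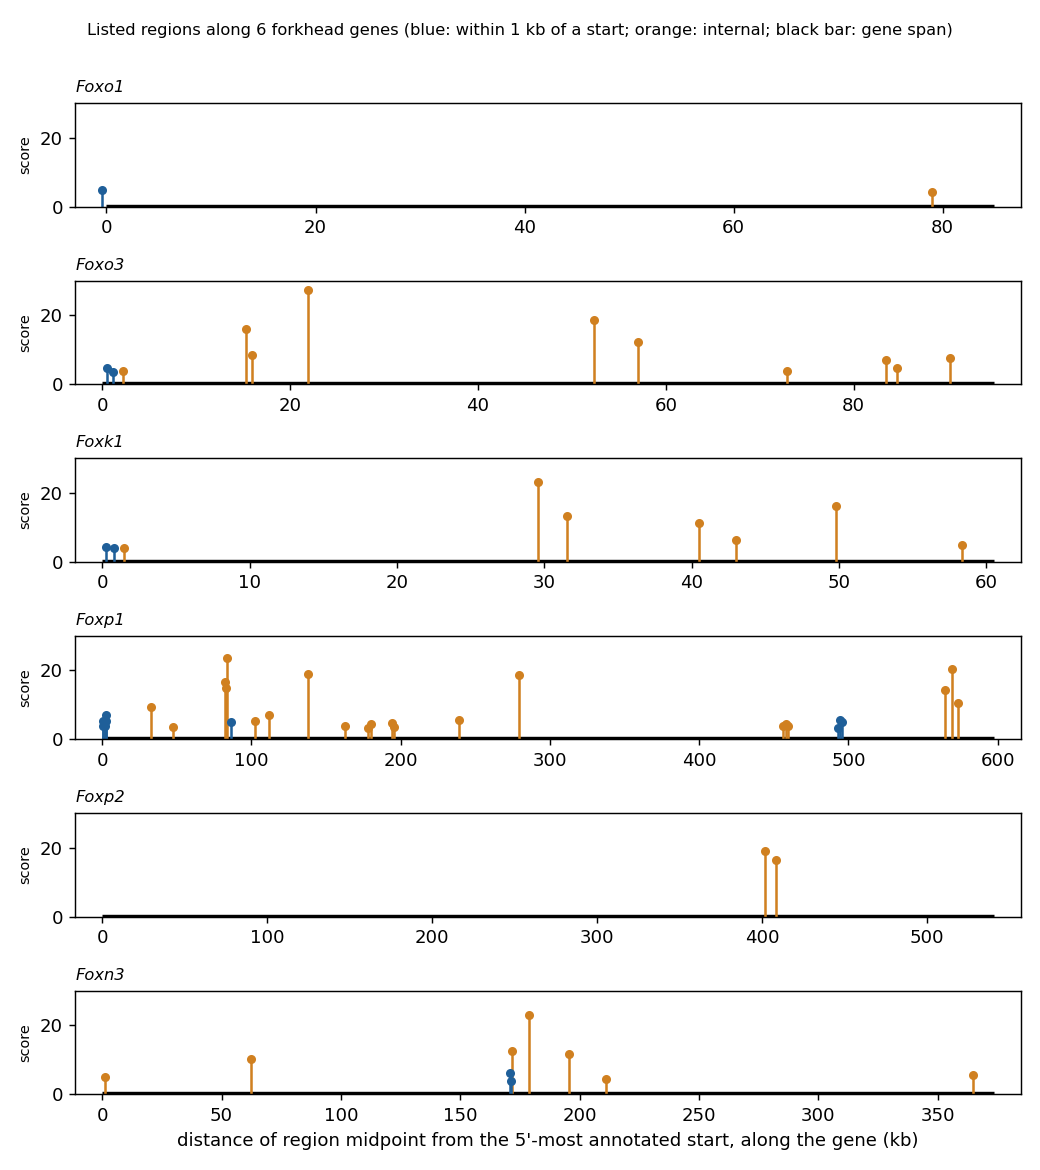
Position of listed regions along Foxo1, Foxo3, Foxk1, Foxp1, Foxp2 and Foxn3, as distance of the region midpoint from the 5′-most annotated start (kb, along the gene), with the deposited score as height. Start-site regions (blue) are low, the high bars are internal regions (orange), and Foxp2 has 2 regions in 541 kb where Foxp1 has 30.

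Among the other 34 genes, 10 were marked. Foxm1, which drives the genes of the G2 phase and mitosis in dividing cells, had 5 start-site regions. The 3 strongest scored 14.0, 12.5 and 13.4 and lay 4123 to 7691 bp downstream of the 5′-most start, near starts of shorter transcripts, of which 2 are annotated as retained introns. Its other 2, nearer the front of the gene, scored 3.92 and 3.54. No region lay within 1 kb of the 5′-most start of Foxm1, and the nearest was 1280 bp away (128364247 to 128364374 on chromosome 6, score 3.84). This nearest region was 97.7% repeat-masked sequence.

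The remaining marked genes of wide expression were Foxj2, Foxj3, Foxn2 and Foxn3. Foxj2 had a region of 319 bp in its first exon (4.68), which also overlaps the antisense gene Gm26826 within 1 kb of its start and so cannot be given to Foxj2 alone, and a second at the start of a shorter transcript (4.59). Foxj3 had 1 start-site region (3.68) and 3 internal ones at 14.3, 14.8 and 19.0, the last at the commonest exact score of the list. Foxn2 had a region of 3.42 in its first intron. Foxn3, a repressor linked to the DNA damage checkpoint, spans 374 kb with 14 starts, and its 2 start-site regions (3.79 and 6.27) stood at an internal start, 171289 and 170862 bp from the 5′-most one.

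Of the remaining, more tissue-restricted factors, 5 were marked. Foxc1, which acts in the mesenchyme of the eye, skull and meninges, had 3 regions (4.63, 4.52 and 4.82), at 600 and 344 bp upstream and 887 bp downstream of its start. Foxf1 and Foxf2, which act in the mesenchyme around gut and lung, had 1 (3.53) and 2 (4.40 and 4.91). Foxj1, which switches on motile cilia genes, had 2 upstream regions (3.93 and 5.27). Noncoding genes also start within 1 kb of the regions at Foxf1 (Fendrr) and Foxf2 (1700018A04Rik), and these regions cannot be given to the forkhead gene alone.

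Foxc2, Foxh1 and Foxn1 had internal regions only. Foxc2 is an intronless gene of 2.73 kb, and its regions of 5.98 and 3.85 were in the 3′ UTR. Foxh1, the partner of Smad proteins in Nodal signalling, had 1 region across its 3′ end (8.28). Foxn1, the regulator of thymic epithelium, had 3, up to a score of 20.7 in an intron.

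No listed region fell at or in the other 21 genes of this class, which cover the whole Foxa, Foxb, Foxd, Foxe, Foxi and Foxr subfamilies, both Foxl genes, Foxn4, Foxq1 and Foxs1. These include the pioneer factors Foxa1 and Foxa2 of endoderm, Foxd3 of neural crest, Foxe1 of thyroid, Foxe3 of lens and Foxl2 of ovary. Over the 27 unmarked forkhead genes, the gap from a start to the nearest listed region ran from 1.27 kb at Foxa3 to 315 kb at Foxa1, with a median of 22.3 kb. For 9 of them it was 10 kb or less.

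Side by side, 7 of the 10 Foxo, Foxp and Foxk genes (70%) were marked and 10 of the other 34 (29.4%), with 39.5% of all protein-coding genes between them. The difference was not tested, since genes of a family are not replicates of a condition. Internal regions were found in 8 of 10 (80%) and 11 of 34 (32.4%), against 36.6% of all protein-coding genes. Pooled over each class per 100 kb of gene span, the order was reversed. The Foxo, Foxp and Foxk genes held 3.19 internal regions and the others 3.90, against 1.92 over all protein-coding genes. Single genes weigh on these pooled values. Foxp2 brings 541 kb with 2 internal regions to the first class, and Foxf2 brings 5.59 kb with 5 to the second. The order without them was not tested. The classes also differed in build. The median number of annotated starts was 4 against 1, the median length of start window searched 5032 against 2001 bp, and the median span 59.0 against 4.37 kb. With the 5′-most start alone, which gives each gene an equal window, 7 of 10 (70%) and 7 of 34 (20.6%) were marked, against 32.5% of all protein-coding genes. The genes lost from the second class were Foxj3, Foxm1 and Foxn3.

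CpG density ran the other way between the classes, with a median of 4.17 CpG per 100 bp in the start windows of the Foxo, Foxp and Foxk genes and 5.59 in those of the others. Over all protein-coding genes the median was 2.13. Each gene's value pools the windows of all its annotated starts, of which the classes had a median of 4 and 1. CpG density at the 5′-most start alone was not compared. Within the second class, the 10 marked genes (median 5.59, range 2.81 to 10.3) and the 24 unmarked ones (5.57, range 0.400 to 9.55) overlapped.

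The line between the classes was not sharp. Foxp3 and Foxp2 are restricted factors in the first class, and Foxj2, Foxj3, Foxm1, Foxn2 and Foxn3 are widely expressed ones in the second. Counted with the Foxo, Foxp and Foxk genes, those 5 raised the share of the first class to 12 of 15 (80%) and lowered that of the second to 5 of 29 (17.2%). When instead Foxo6, Foxp2, Foxp3 and Foxp4 were counted with the lineage genes, the shares were 5 of 6 (83.3%) and 12 of 38 (31.6%). Both regroupings were made with the marks of these genes already known. The 5 genes moved into the first class were all marked, so the direction of that shift was fixed in advance.

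**Figure D3:**
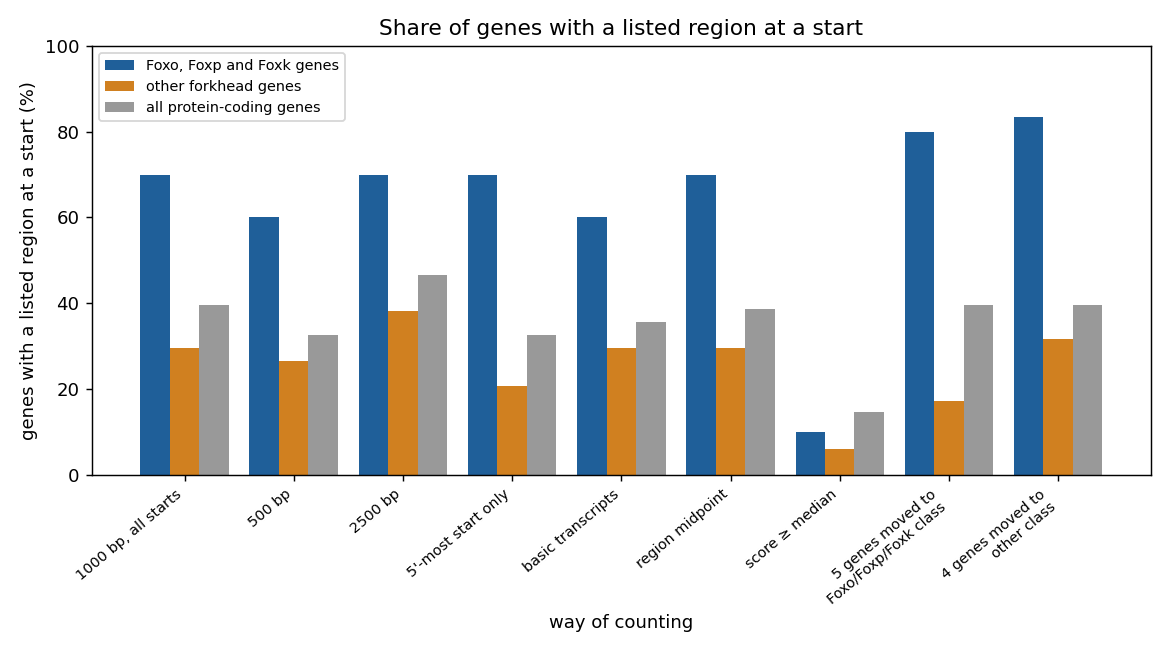
Percentage of genes with a listed region at a start for the Foxo, Foxp and Foxk genes (blue), the other forkhead genes (orange) and all protein-coding genes (grey) under 9 ways of counting. Orange is below grey in all 9, and blue is above grey in all but the count of regions at or above the median score. There the shares were 10%, 5.88% and 14.6%. The ways that move genes between classes were set with the marks of these genes known, so they are no support for a difference.

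Start-site regions of forkhead genes had lower scores than internal ones, as over the list as a whole. The 37 start-site regions had a median deposited score of 4.59, from 3.32 to 14.0, and 5 of them (13.5%) reached the median of the whole list. Over all protein-coding genes, 26.6% of the 13316 start-site regions did, with a median of 5.00. The 77 internal regions had a median of 8.28, and 43 (55.8%) reached the list median, against 58.8% of the 19581 internal regions of all protein-coding genes. Scores of 10 or more were found at 3 start-site regions (8.11%), all at Foxm1, against 14.8% of all start-site regions. They were found at 34 internal regions (44.2%), against 44.9% of the internal regions of all protein-coding genes. With only regions at or above the list median, the marked forkhead genes fell from 17 to 3, with Foxm1 and Foxp1 among them, or 6.82%, against 14.6% of all protein-coding genes.

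**Figure D4:**
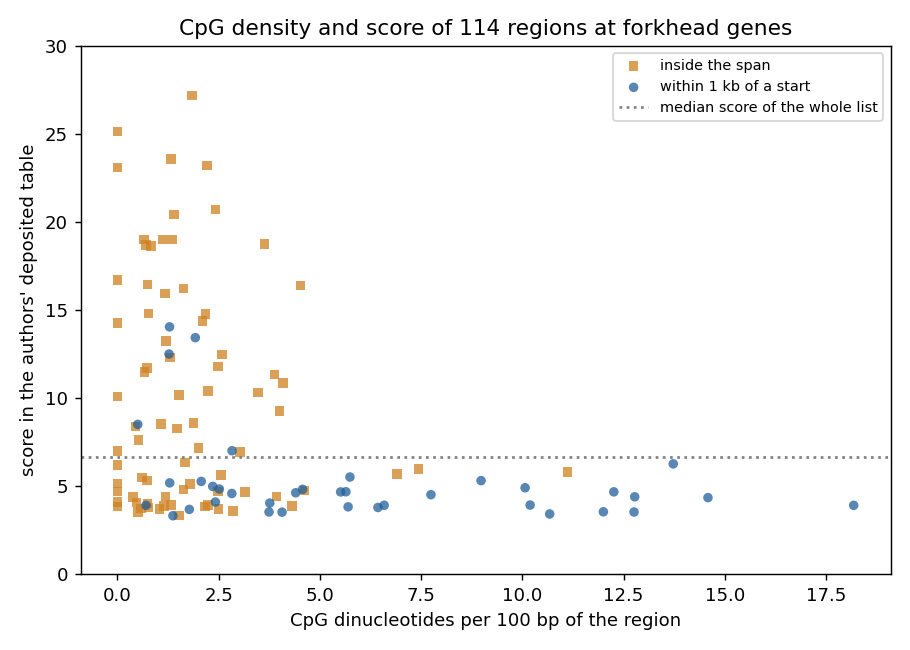
CpG dinucleotides per 100 bp (horizontal axis) and deposited score (vertical axis) of the 114 forkhead regions, with circles for start-site and squares for internal regions. All 21 regions with 5 or more CpG per 100 bp scored 6.27 or lower, and the scores of 10 or more are confined to the CpG-poorer regions on the left.

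Base composition differed between the 2 kinds of region. Median GC content was 60.4% in start-site and 49.3% in internal regions, and median CpG density 4.57 and 1.34 per 100 bp. Of the 21 forkhead regions with at least 5 CpG per 100 bp, 18 were at starts, and their scores ran from 3.42 to 6.27. Of the 93 with fewer, 37 scored 10 or more (39.8%). The whole list had the same lean, with 7.24% of 5177 CpG-dense regions and 40.5% of 40678 others at 10 or more. Within internal forkhead regions alone, those at 10 or more and those below it had median CpG densities of 1.33 and 1.47. The part of base composition in the scores was not tested.

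By position, 18 of the 37 start-site regions had their midpoint upstream of the nearest annotated start and 19 downstream. Only 8 (21.6%) were centred within 250 bp of it, against 34.6% of the 14813 pairs of gene and start-site region over all protein-coding genes. In the annotation, 20 start-site midpoints fell in introns, 9 upstream of the gene, 6 in coding exons and 2 in 5′ UTR. Internal midpoints were intronic in 65 of 77 cases, with 6 in 3′ UTR, 4 in coding exons and 2 in noncoding exons. Relative to length, the family held 3.42 internal regions per 100 kb of gene span, against 1.92 over all protein-coding genes.

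The core GTAAACA, on either strand, occurred in the middle 120 bases of 2 of the 37 start-site regions (5.41%), those of Foxj2 and Foxp4. It occurred in 1.04% of all start-site regions cut to the same length. Of the 77 internal regions 0 held it, against 1.34% of the internal regions of all protein-coding genes. Counts this small were not tested. The GC box GGGCGG was in 7 start-site regions (18.9%, against 14.0% of all start-site regions) and 2 internal ones (2.60%, against 3.04%). The AP-1 site TGANTCA was in 1 start-site region (2.70%, against 2.16% of all start-site regions) and 3 internal ones (3.90%, against 3.56%), both near the background. Each motif was sought on both strands, and none of them holds another. In the RefSeq promoters, from 250 bases before to 50 after a start, 33 entries matched 28 forkhead genes, and 1 of them, at Foxa1, held GTAAACA (3.03%, against 3.65% of 32851 promoters), while 24 held GGGCGG (72.7%, against 35.7%).

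Forkhead genes that lie side by side were described together. On chromosome 8, Foxf1, Foxc2 and Foxl1 lie within 48.3 kb (121083386 to 121131644 with 1 kb on each side), and this stretch held 11 regions, 22.8 per 100 kb. The 1000 kb on either side of it held 7.95 per 100 kb and the whole chromosome 1.91. Of these, 4 were at or in Foxf1 and Foxc2 and 7 lay outside the forkhead genes. The whole stretch, and so all 11 regions, lies inside the annotated protein-coding gene Gm20388 on the same strand, and 4 of the 7 also lie in the neighbouring gene Mthfsd. The strongest of the 7, at 5.74, 10.1 and 14.3 kb from the Foxf1 start, scored 17.5, 19.5 and 19.5. Foxl1 itself had none, with the nearest region 2612 bp away.

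On chromosome 13, Foxq1, Foxf2 and Foxc1 lie within 258 kb, and 15 regions were listed there, 5.81 per 100 kb, against 0.950 in the 1000 kb on either side and 1.03 over the chromosome. Foxf2 took 7 of them, from 435 bp to 4968 bp downstream of its start, and its 5 internal ones scored 3.71 to 16.4. The next region beyond the gene, 7.41 kb from the start, scored 20.2. The Foxq1 start was 22.3 kb from any region. The pair Foxd2 and Foxe3 on chromosome 4, in 21.7 kb, had no region at all.

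**Figure D5:**
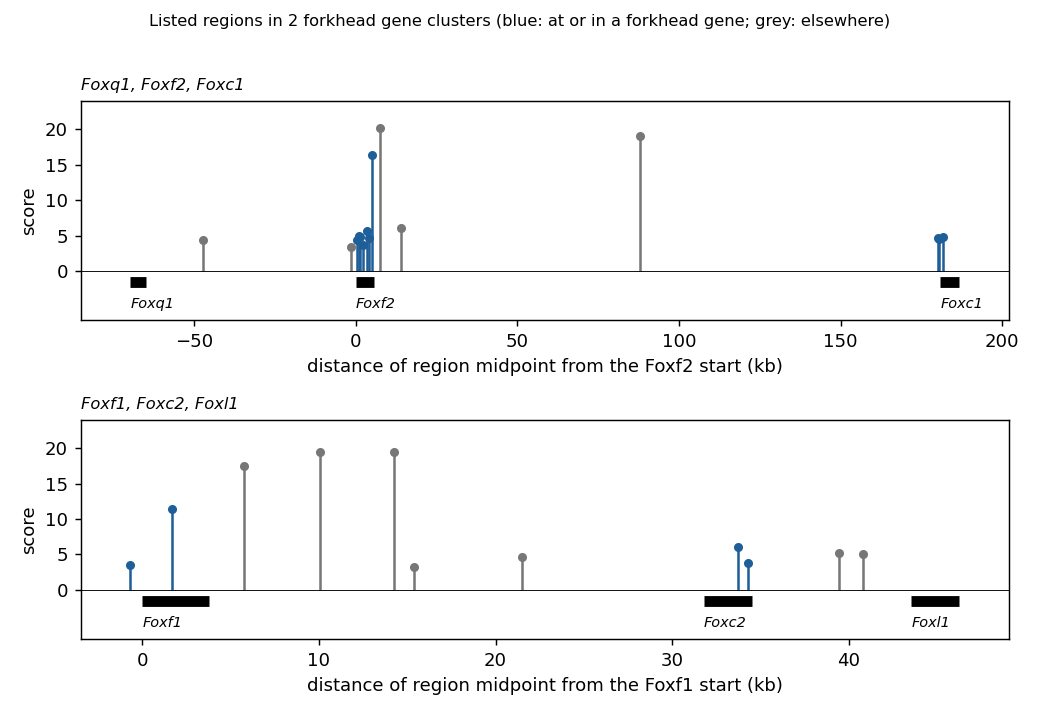
Listed regions around Foxq1, Foxf2 and Foxc1 (upper panel) and Foxf1, Foxc2 and Foxl1 (lower panel), as distance of the region midpoint from the Foxf2 or Foxf1 start (kb) against deposited score, with black bars for gene spans. Regions at or in a forkhead gene are blue and the others are grey, and the grey ones, which on chromosome 8 lie inside other annotated genes, include the highest bar of each panel (20.2 and 19.5).

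The genes around the forkhead factors were taken from 4 lists. Of 18 genes that control FoxO activity, most of them through insulin, PI3K and Akt, 12 were marked (66.7%, against 39.5% of all protein-coding genes). All were marked by 70 µM regions. The highest deposited scores were at Pik3ca, the catalytic subunit of PI3K (21.6), the IGF1 receptor gene Igf1r (15.8) and Akt2 (12.05), while Akt1, Irs1, Irs2, Pik3cb, Pik3r1 and Sirt1 had no listed region at a start. Of 17 FoxO target genes, 9 were marked (52.9%), led by the sestrin gene Sesn3 (17.0), the translation inhibitor Eif4ebp1 (16.2) and the mitochondrial superoxide dismutase Sod2 (8.86). The liver targets G6pc, Igfbp1 and Pck1 and the muscle ubiquitin ligases Fbxo32 and Trim63 were among the 8 without one.

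Of 12 targets of Foxm1 and genes of mitosis, 10 were marked (83.3%, against 39.5% of all protein-coding genes). They were led by Skp2 (17.4), which directs the breakdown of p27, the mitotic kinase Aurkb (6.81) and the phosphatase Cdc25b (6.51). Cdk1 and Cenpa were not marked. Of 12 cofactors of FoxK and FoxP proteins, 7 were marked (58.3%, against the same 39.5%). Gatad2b of the NuRD complex (21.8), Suds3 of the Sin3 complex (21.3) and the deubiquitinase Bap1 (13.0) came first. The median of the strongest start-site score was 6.17, 5.15, 5.25 and 7.17 in these 4 lists, in the order given, against 4.68 at the marked forkhead genes and 5.68 over all marked protein-coding genes. None of the 4 lists was tested.

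Marker genes of cell types were counted in the same way. The list holds only regions that differ between choline levels, so these counts cannot check the identity of the cells. Of 6 neuronal marker genes, 2 were marked (33.3%, against 39.5% of all protein-coding genes). They were Rbfox3, at the commonest exact score of the list (19.0), and Syn1, but not Map2, Tubb3, Snap25 or Nefl. Of 6 genes listed for fibroblasts and mesenchyme, 5 were marked (83.3%), namely Col1a1, Col1a2, Thy1, Twist2 and Vim, but not Twist1. Thy1 and Vim are not particular to these cells, and Col1a2 also carried a 5 µM region. The count was 2 of 4 for astrocytes (50%), 1 of 4 for microglia (25%) and 0 of 4 for oligodendrocytes. With 4 to 6 genes a list, these shares are coarse, and none was tested.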

How the data were processed

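H3K9ac ChIP-seq of HT22 cells gave 2 ChIP and 2 input libraries. The build was mm10 and the tools were CASAVA 1.8, Bowtie 1.0.0 and MACS2, whose version is not stated, per the submitters' processing notes. Regions that differ between the choline levels came from bdgdiff in MACS2, after peak calling with input as control, per the series' design text. The authors deposited 1 list of those differences with a score per region, and the track lines name only regions unique to condition 1 or condition 2. MACS2 normally writes a log10 likelihood ratio there, but the file does not name the score. Depth and the scaling between libraries are not given in the sources used here. A condition with the deeper library could gain regions from depth alone, which was not tested.

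With Python 3.11.15, numpy 2.4.6 and pandas 2.3.3, regions were set against GENCODE M21 and RefSeq GRCm38.p6 on chromosomes 1 to 19, X and Y. All regions ended inside the chromosomes. A gene was marked when a region reached, by 1 bp or more, into the window of 1000 bp on each side of one of its annotated starts. Coordinates count from 1. No test was run, and the members, classes and lists were chosen with earlier results of these data known. Every forkhead gene with a region was named, apart from 1 that is counted but not reported here, and in the other lists the 3 marked genes with the highest scores. The sequence of the strongest internal region, the CpG limit of 5 per 100 bp, the score limit of 10 and the neighbouring gene groups were added after the scores were seen. Alternatives were other windows, starts, overlaps, score limits and gene classes, and a share was taken as moved when it left the exact 95% binomial interval of the main share.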

Additional observations from a re-analysis of the deposited data

How the results depend on the processing

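Of 52 combinations of a value and another way of counting, 43 stayed and 9 moved. To stay was to lie within the exact 95% interval of the reported value, or within 1.5 times for the number of regions. The intervals are wide, from 34.8% to 93.3% for the Foxo, Foxp and Foxk share and from 15.1% to 47.5% for the others. Both hold the 39.5% of all protein-coding genes, so a share that stayed does not show that the classes differ. When regions under the median score were left out, the share of marked genes fell to 6.82% in the family, 10% among the Foxo, Foxp and Foxk genes and 5.88% among the others. There the number of start-site regions was 5 and the median strongest score 8.51. That number was 21 with windows of 500 bp, 61 with 2500 bp and 20 with the 5′-most start alone, by construction of the windows. With 2500 bp the median strongest score was 6.50, and Foxa3, Foxc2 and Foxh1 became marked. With 500 bp Foxf1 and Foxp4 were lost, and with basic transcripts alone Foxp3. Leaving out the 2 commonest scores, or the 5 µM regions, could change no start-site call, as no forkhead start-site region was of either kind. The share of forkhead genes with internal regions stayed at 43.2% in both, against 34.4% and 36.5% of all protein-coding genes. With the 5′-most start alone it was 43.2% against 42.3%, with basic transcripts 43.2% against 40.4%, and with 2500 bp 29.5% against 29%. With 500 bp it was 45.5% against 41.8%, and with the region midpoint 43.2% against 37.3%. For regions at or above the median score it was 34.1% against 28.2%. No paired analysis was possible because no column holds the values of a single library and the labels tie no library to a choline level. The single list and the unknown depth limit these results: no error between cultures can be given, and intervals cover counting over genes only.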
